A study of Mus musculus with 2 samples.

Results

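The genes described here are 32 members of the glycolysis and hypoxia programme, taken by symbol from the 31054 features counted in 2 single-cell libraries of mouse tumours. All 32 were present in both libraries. They were divided by role into 3 transporters of glucose and lactate, 13 enzymes of glycolysis, 3 regulators of its flux and 13 targets of the hypoxia response. The young library came from tumours of mice aged 4 weeks and the adult library from tumours of mice aged 24 weeks. Both carry the label d7, and in both the tumours were pooled and sorted for mCherry, a red fluorescent protein, before capture with the 10x Genomics 3' v2 kit. Tumour type, strain and the carrier of mCherry are not given in the labels. Since each age is a single library of pooled tumours, values have no replicates and were not tested, and effects of age, pool, sorting and library preparation cannot be told apart.

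Glycolysis splits glucose to pyruvate in a chain of cytosolic enzymes, and lactate dehydrogenase returns pyruvate to lactate when it is not burned in mitochondria. When oxygen is short, prolyl hydroxylases stop marking the alpha subunits of the hypoxia-inducible factors (HIF) for destruction. HIF then raises the transcription of glucose transporters, most glycolytic enzymes and a set of targets for mitochondrial clearance, vessel growth and lipid storage. In macrophages and neutrophils the same genes also respond to inflammatory signals, so their RNA level is not by itself a measure of oxygen.

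The binding core of HIF is ACGTG or GCGTG, and the 250 bases before the start of each member were read from RefSeq promoters (build GRCm38.p6) for 28 of the 32 members. Slc2a3, Bnip3l, Ndrg1 and Ero1l had no entry. Where a gene had more than 1 entry only the first was read. Some windows, such as those of Gapdh and Ldha, lie inside the bounds that GENCODE gives the gene. For 8 members the last 30 bases of the 300-base entry, which runs past the start, were searched in GENCODE transcripts of the gene. They were found for 6. ACGTG, searched on both strands (CACGT on the other strand, with CACGTG counted for both), occurred in 12 of the 28 members, or 42.9%, and in 16.6% of the windows of 27025 genes. With GCGTG added (CACGC on the other strand), 21 of 28 members, or 75%, held a match against 38.6% of all genes. Members' windows were also richer in G and C, with 61.6% against 53.0%, and a match to these letters is not shown to be a site. By role, ACGTG stood in 2 of 2 transporters, 4 of 13 enzymes, 1 of 3 regulators and 5 of 10 hypoxia targets. The windows below are those of 2 enzymes and of 2 hypoxia targets that carry results given further on, each free of annotated exons, with ACGTG and CACGT in capitals. Pgk1 (phosphoglycerate kinase) lies on the plus strand at chrX:106186850-106187099, and its matches are 150 and 131 bases before the start. Hk2 (hexokinase) lies on the minus strand at chr6:82774455-82774704, with matches at 226 and 52 bases. Egln3 (a HIF prolyl hydroxylase) lies on the minus strand at chr12:54203875-54204124, with 1 match at 229 bases. Hilpda (a lipid droplet protein) lies on the plus strand at chr6:29272238-29272487 and held 0 matches in this window.
Pgk1: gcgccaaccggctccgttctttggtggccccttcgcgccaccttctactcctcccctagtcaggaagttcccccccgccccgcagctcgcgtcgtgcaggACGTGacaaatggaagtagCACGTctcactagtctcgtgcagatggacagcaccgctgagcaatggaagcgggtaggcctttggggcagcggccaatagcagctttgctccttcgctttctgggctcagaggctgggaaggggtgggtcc
Hk2: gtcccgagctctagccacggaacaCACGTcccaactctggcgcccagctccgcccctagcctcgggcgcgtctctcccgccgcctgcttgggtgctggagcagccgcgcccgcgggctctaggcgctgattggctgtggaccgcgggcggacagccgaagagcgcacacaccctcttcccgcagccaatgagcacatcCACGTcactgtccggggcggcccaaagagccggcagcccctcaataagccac
Egln3: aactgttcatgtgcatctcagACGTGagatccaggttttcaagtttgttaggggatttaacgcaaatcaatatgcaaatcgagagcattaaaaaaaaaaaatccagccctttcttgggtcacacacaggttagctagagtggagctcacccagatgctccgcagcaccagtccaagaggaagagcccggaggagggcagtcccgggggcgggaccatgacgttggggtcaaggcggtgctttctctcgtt
Hilpda: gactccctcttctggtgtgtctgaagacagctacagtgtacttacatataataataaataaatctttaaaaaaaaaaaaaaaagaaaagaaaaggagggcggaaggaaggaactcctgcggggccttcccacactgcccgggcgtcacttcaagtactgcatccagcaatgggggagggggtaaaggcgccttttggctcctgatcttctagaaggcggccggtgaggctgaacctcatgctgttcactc

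Cells were put into classes by single genes. Cells with at least 10 UMIs (unique molecular identifiers, each standing for a captured RNA molecule) of the mCherry construct were called mCherry-rich and given no cell type. Of the rest, cells with at least 1% of UMIs from S100a8 and S100a9 were called neutrophils, and cells with a UMI of Csf1r, the receptor of the macrophage growth factor, were called Csf1r cells. After filtering, 7090 young and 5774 adult cells remained, with medians of 9841.5 and 9660 UMIs. The 2 libraries shared 111 barcodes. Csf1r cells numbered 5520 young and 4358 adult, mCherry-rich cells 423 and 476, and neutrophils 122 and 195. Median depth was 10349 and 10122.5 UMIs in Csf1r cells, 32751 and 31334.5 in mCherry-rich cells and 2163 and 1907 in neutrophils. Csf1r cells expressed 10 of 10 macrophage and monocyte markers at 10 CPM or more (counts per 1000000 UMIs of the class), and neutrophils 7 of 7 neutrophil markers. These lists include the gate genes Csf1r, S100a8 and S100a9. By the same limit neutrophils also held 10 of 10 macrophage and monocyte markers and mCherry-rich cells 9 of 10. Csf1r cells held 3 (young) and 4 (adult) of 7 neutrophil markers. The summed macrophage markers stood at 19525 and 17053 CPM in Csf1r cells, 1564 and 961 CPM in mCherry-rich cells and 10048 and 8968 CPM in neutrophils. Macrophage transcripts were thus also counted in the other classes, and except where a value is given their part in those levels was not tested.

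Csf1r cells held all 13 enzymes at 10 CPM or more in both libraries. Together the 13 enzymes made up 1.33% of their UMIs in the young and 1.28% in the adult library. The corresponding shares were 0.921% and 0.917% in mCherry-rich cells and 1.12% and 1.19% in neutrophils. All 3 classes thus gave close values at the 2 ages, and the order Csf1r cells, neutrophils, mCherry-rich cells held in each library. Gapdh (glyceraldehyde phosphate dehydrogenase, chromosome 6, 125161715 to 125166467) reached 4560.1 CPM in Csf1r cells of the young and 4381 CPM in those of the adult library. Pkm, the pyruvate kinase, was at 2546.5 and 2240.5 CPM, and Ldha, a subunit of lactate dehydrogenase, at 1234 and 1326 CPM. Levels are given for each gene against itself only, because a 3' count depends on how well each transcript is captured.

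The transporters and the isozyme gene Aldoc differed widely by class. Slc2a1, the basal glucose transporter (chromosome 4, 119108711 to 119137983), was at 176 and 195 CPM in Csf1r cells, 73.8 and 69.3 CPM in mCherry-rich cells and 340.3 and 390.2 CPM in neutrophils. Neutrophils were the highest and mCherry-rich cells the lowest class in both libraries. Slc2a3, a high-affinity glucose transporter, was low outside neutrophils in these classes, with 0.838 and 0.933 CPM in Csf1r cells, 2.50 and 2.76 CPM in mCherry-rich cells and 73.6 and 40.1 CPM in neutrophils. Its neutrophil levels rest on 24 and 18 UMIs. The lactate exporter gene Slc16a3 was at 300.3 and 261 CPM in Csf1r cells, 166 and 126 CPM in mCherry-rich cells and 497 and 526 CPM in neutrophils. Aldoc, the brain-type aldolase, was at 26.3 and 35.5 CPM in Csf1r cells, at 2.03 and 1.88 CPM in mCherry-rich cells, and in neutrophils at 0 of 326137 UMIs in the young library, which allows up to 9.20 CPM, and 13.4 CPM (6 UMIs) in the adult one.

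Hilpda, a hypoxia target that inhibits triglyceride breakdown on lipid droplets (chromosome 6, 29272488 to 29275446), differed widely by class. It was at 3407 and 3057 CPM in neutrophils, 623 and 547 CPM in Csf1r cells and 94.6 and 72.6 CPM in mCherry-rich cells. Neutrophils held the highest and mCherry-rich cells the lowest level in both libraries. Vegfa, the vascular growth factor (chromosome 17, 46016993 to 46032369), had another order, with 249 and 225 CPM in Csf1r cells, 138 and 147 CPM in neutrophils and 44.2 and 40.8 CPM in mCherry-rich cells. Mif, a cytokine with tautomerase activity (chromosome 10, 75859353 to 75860240), was highest in mCherry-rich cells at 3545 and 3599 CPM, against 1654 and 1761 CPM in Csf1r cells and 1631 and 1561 CPM in neutrophils. Adm, a vasodilator peptide, and P4ha2, a collagen prolyl hydroxylase, stayed below 5 CPM in Csf1r cells.

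**Figure D1:**
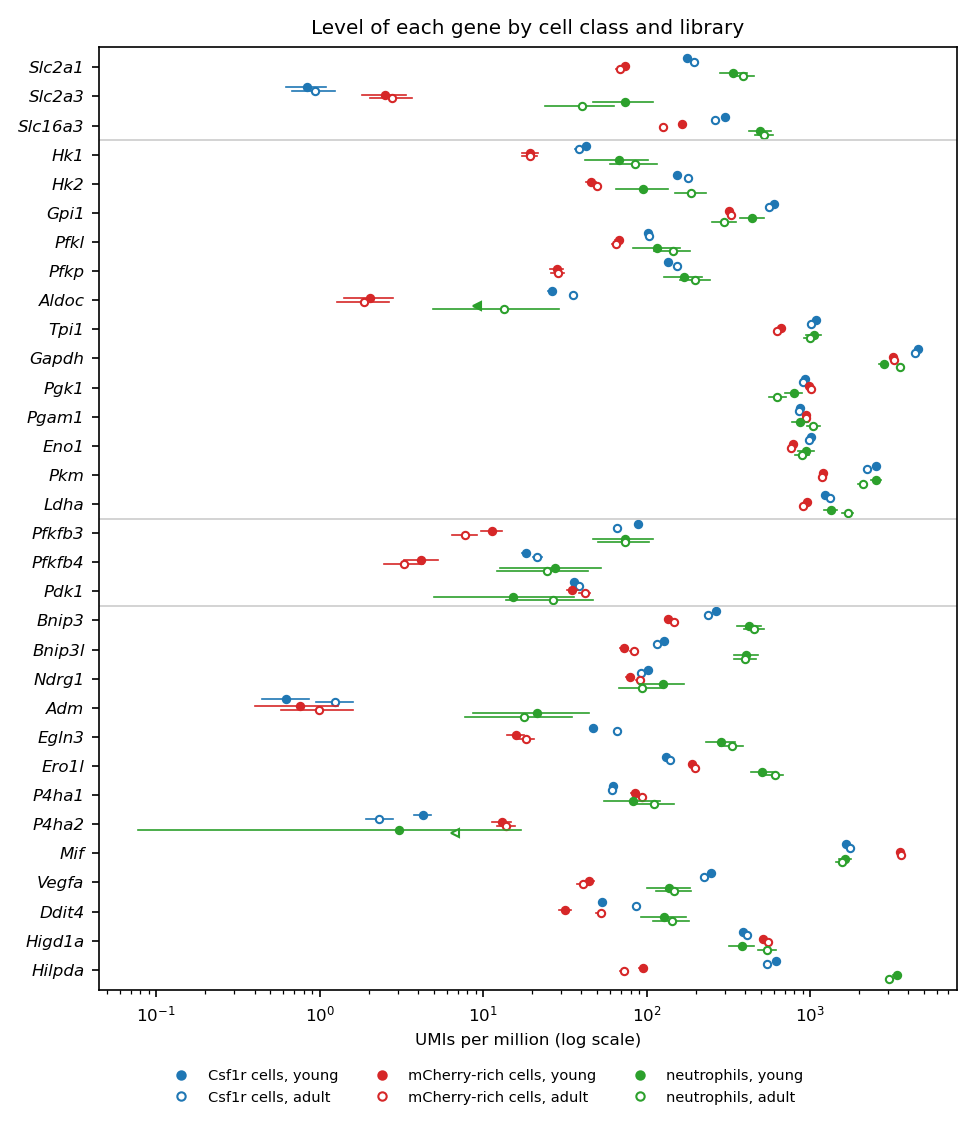
Level of each of the 32 members in CPM on a log axis, by cell class, with filled symbols for the young and open symbols for the adult library and bars for the exact Poisson 95% interval (counting error only). Left-pointing triangles mark 0 UMIs at the limit that 3 counts would give. Hilpda spans from 72.6 CPM in adult mCherry-rich cells to 3407 CPM in young neutrophils, while Pgk1 and Pgam1 lie close together across classes.

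The first question the design poses is whether the members differ between young and adult tumours. In Csf1r cells 29 members reached 10 CPM, and only Ddit4 differed by at least 1.5-fold with a counting interval off 1. Ddit4, an inhibitor of mTOR signalling induced by hypoxia and other stress (chromosome 10, 59949669 to 59951834), had 53.3 CPM in the young and 85.7 CPM in the adult library, a young/adult ratio of 0.622 (95% interval 0.594 to 0.652). No member was higher. Of all 6490 features measured in these cells, 3.42% were higher and 2.5% lower by the same rule, so 1 lower member of 29 is near the background. The median log2 ratio of the members was 0.024 against 0.047 over all features. All ratio intervals are conditional binomial intervals that cover counting error only, and members were called by these limits, not by a test.

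Ddit4 was also lower in the young library inside subgroups of the Csf1r cells. When cells were divided by Ly6c2, C1qa, Hmox1 and Mrc1 at the same time, 9 combinations held at least 50 cells in each library. Ddit4 was lower in the young library in 8 of the 9, with a mean log2 ratio of -0.64. Some members kept 1 direction with unequal size. Pfkp, a phosphofructokinase, was lower in 9 of 9 combinations (mean log2 ratio -0.29, from -0.97 to -0.04), and both Pkm (0.15) and the lactate exporter gene Slc16a3 (0.20) were lower in 0 of 9. Further members stayed short of 1.5-fold. Pfkfb3, whose product makes the sugar bisphosphate that activates phosphofructokinase, was at 88.7 and 66.3 CPM, a ratio of 1.34 (1.28 to 1.40). Egln3 (chromosome 12, 54178981 to 54203860) was at 47.4 and 66.0 CPM, a ratio of 0.717 (0.682 to 0.755). Aldoc had a ratio of 0.741 (0.691 to 0.793).

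The 13 enzymes ranged from the 0.741 of Aldoc to the 1.14 of Pkm, and none reached the fold limit. Gapdh had a ratio of 1.04 (1.03 to 1.05), Pgk1 1.03 (1.02 to 1.04), Eno1 (enolase) 1.02, Tpi1 (triose phosphate isomerase) 1.07 (1.06 to 1.09) and Ldha 0.931 (0.921 to 0.941). At this depth differences of a few percent exceed counting error, which says nothing about differences between mice. Hk2, the inducible hexokinase (chromosome 6, 82725025 to 82774454), was at 154 and 179 CPM, a ratio of 0.859 (0.834 to 0.884). Slc2a1 had a ratio of 0.904 (0.879 to 0.929) and Slc16a3 a ratio of 1.15 (1.13 to 1.18).

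In mCherry-rich cells 28 members were measured, and Ddit4 was again the only member past the limits. It had 31.6 CPM in the young and 52.4 CPM in the adult library, a ratio of 0.604 (0.542 to 0.673). No member was higher, against 4.29% higher and 0.948% lower over 6648 features. Among mCherry-rich cells without a Csf1r UMI, 226 young and 302 adult, the log2 ratio of Ddit4 was -0.42 in place of -0.73 and short of the fold limit. Without the 6% of cells with the most UMIs it was -1.28. Pfkfb3 reached 10 CPM in the young library alone (11.3 against 7.74 CPM), so the minimum level fixed its direction. Hilpda had a ratio of 1.30 (1.21 to 1.41), Slc16a3 of 1.31 (1.24 to 1.39) and Pfkfb3 of 1.45 (1.16 to 1.83), all short of 1.5-fold. These are genes with more RNA in Csf1r cells, and summed macrophage markers were also higher in young mCherry-rich cells (1564 against 961 CPM). The part of macrophage RNA in these ratios was not tested.

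Neutrophils gave 1 call among 31 measured members. Hk2 had 95.1 CPM (31 UMIs) in the young and 187 CPM (84 UMIs) in the adult library, a ratio of 0.508 (0.325 to 0.775). Of 5701 features, 6.79% were higher and 3.16% lower, and the call was lost when each cell was thinned to 3000 UMIs, which left 26 and 31 neutrophils. Ddit4 was at 129 and 143 CPM in neutrophils, a ratio of 0.902 (0.597 to 1.35) whose interval spans 1. Whether its ratio differs between the classes was not tested.

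**Figure D2:**
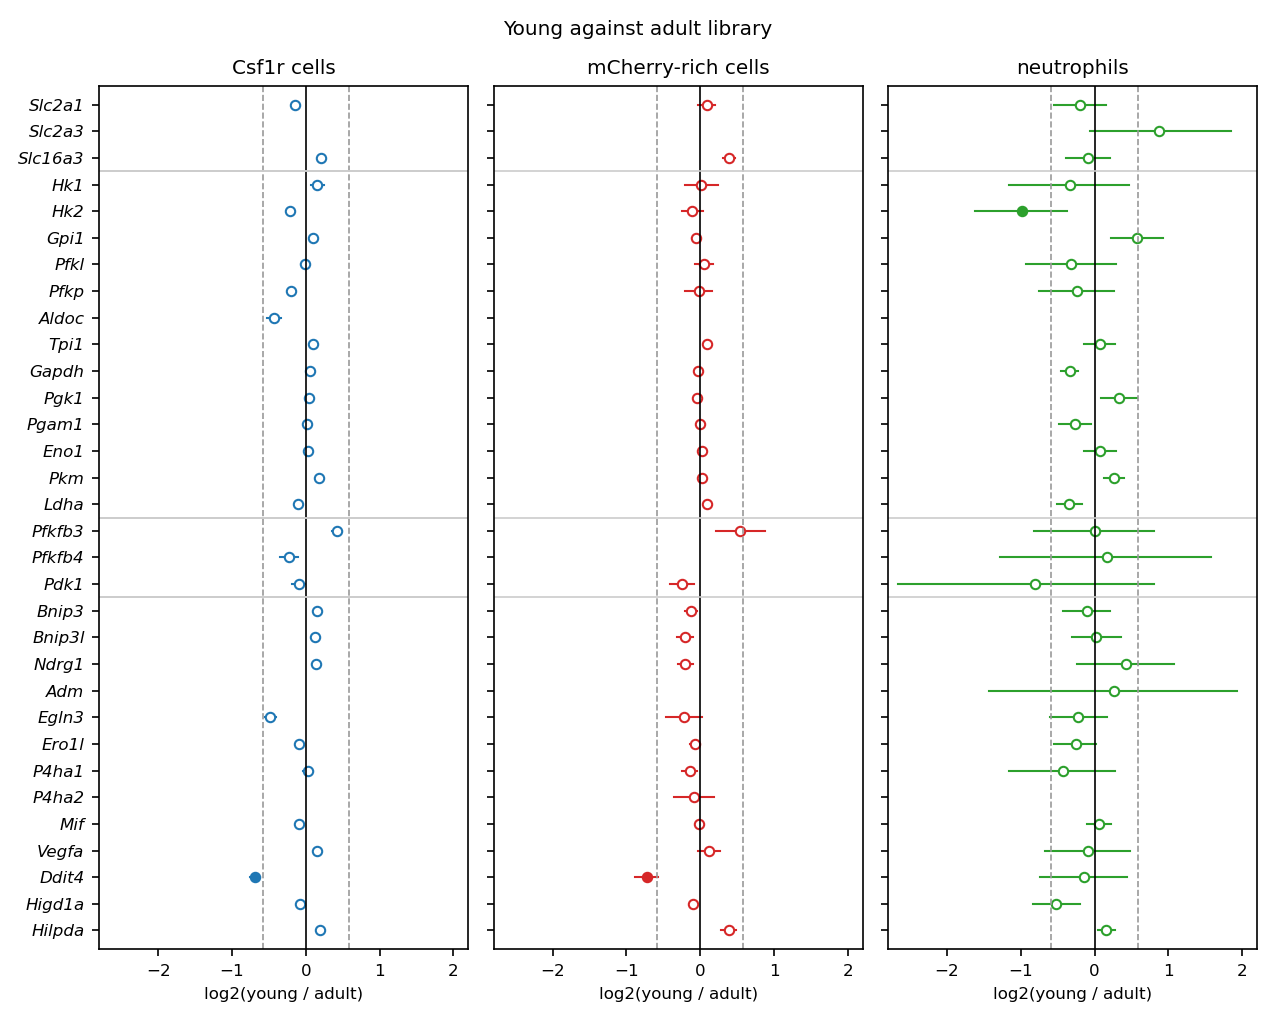
Log2 ratio of young over adult for each member in Csf1r cells, mCherry-rich cells and neutrophils, with the 95% counting interval as bars and dashed lines at 1.5-fold. Filled points meet the fold limit with an interval off 1: Ddit4 in Csf1r cells (ratio 0.622) and mCherry-rich cells (0.604) and Hk2 in neutrophils (0.508), while grey lines separate the roles.

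Genes of neighbouring pathways gave a similar picture by age in Csf1r cells, with few calls. None of 5 measured HIF pathway genes, none of 7 pentose phosphate genes and 1 of 18 genes of pyruvate entry and the citric acid cycle were called. The last was Idh3a, a subunit of isocitrate dehydrogenase, at 19.8 and 30.01 CPM (ratio 0.661). Of 11 further hypoxia targets, Bhlhe40 was lower and Nos2 higher in the young library. Bhlhe40, a transcriptional repressor, had 150 CPM in the young and 300.7 CPM in the adult library in Csf1r cells (0.498) and at 33.9 and 67.3 CPM in mCherry-rich cells (0.504). Nos2, the inducible nitric oxide synthase, was at 334 and 209 CPM in Csf1r cells (1.60) and 33.5 and 18.4 CPM in mCherry-rich cells (1.82). Both genes had more RNA in Csf1r cells, and macrophage RNA was estimated at 7.74% of young and 5.91% of adult mCherry-rich UMIs. Its part in the mCherry-rich ratios was not tested. Of 5 further glycolysis genes the transporter Slc2a6 was lower in young Csf1r cells, with 6.36 against 13.6 CPM (0.468). It reached 10 CPM in the adult library alone, so the minimum level fixed its direction and the call is not read as a result.

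The class comparison asked how the members differ between mCherry-rich cells and Csf1r cells within each library, and a member was called when both libraries passed the limits in the same direction. Of 30 measured members 17 were lower and 2 higher in mCherry-rich cells. Over 7379 features 33.4% were lower and 32% higher. The median log2 ratio was -0.72 for the members and -0.03 for all features. Lower members were 2 of 2 transporters, 8 of 13 enzymes, 2 of 3 regulators and 5 of 12 hypoxia targets. Aldoc and Pfkfb4 reached 10 CPM in Csf1r cells alone and P4ha2 in mCherry-rich cells alone, so the minimum level fixed the direction of these 3. The counts above include their calls, which are not read as results. Pfkfb3 reached 10 CPM in Csf1r cells alone in the adult library, so its direction was fixed there.

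The lower members included the gates of the pathway. Slc2a1 had a ratio of 0.419 (0.395 to 0.445) in the young and 0.356 (0.335 to 0.378) in the adult library. Hk2 was at 45.9 and 49.6 CPM in mCherry-rich cells, with ratios of 0.299 and 0.277. Pfkp was at 28.2 and 28.6 CPM against 135 and 155 CPM, with ratios of 0.209 and 0.185. Pfkfb3 was at 11.3 and 7.74 CPM, with ratios of 0.127 and 0.117. Each of these encodes a transporter or kinase at a step that is known to control flux. Pfkl, another phosphofructokinase, differed less than Pfkp, at 67.6 and 65.1 CPM against 102.3 and 102.8 CPM. Other steps varied: Pgk1 had ratios of 1.05 and 1.11, Pgam1 (phosphoglycerate mutase) 1.09 and 1.10, Eno1 0.776 and 0.777, and Ldha 0.777 and 0.681. Gpi1 was lower, at 317.7 and 329.9 CPM in mCherry-rich cells against 603.6 and 563.3 CPM in Csf1r cells. Tpi1 was also lower, at 665 and 626 CPM against 1091 and 1016 CPM. Pkm was at 1200.04 and 1180 CPM in mCherry-rich cells, with ratios of 0.471 and 0.527.

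Hypoxia targets went in both directions. Hilpda (ratios 0.152 and 0.133), Vegfa (0.178 and 0.181), Egln3 (0.333 and 0.278), Bnip3, a receptor for mitochondrial clearance (0.512 and 0.619), and Ddit4 (0.594 and 0.611) were lower in mCherry-rich cells. Mif was 2.14-fold (2.12 to 2.16) and 2.04-fold (2.02 to 2.07) higher. P4ha2, at 13.1 and 13.8 CPM against 4.27 and 2.32 CPM, was 3.06-fold and 5.96-fold higher. The minimum level fixed the direction of P4ha2, so Mif is the only higher call that is read. P4ha1, its sister subunit, had ratios of 1.37 and 1.53, and Ero1l, an oxidase of the endoplasmic reticulum, 1.44 and 1.43, so neither passed in both libraries.

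These are shares of RNA, and mCherry-rich cells held about 3 times the UMIs of Csf1r cells. Counted per cell, the 13 enzymes gave 375 and 329 UMIs in mCherry-rich cells against 147 and 142 in Csf1r cells. Hilpda gave 3.85 and 2.60 UMIs per mCherry-rich cell against 6.87 and 6.06 per Csf1r cell. The direction for the enzymes therefore depends on the denominator, and that for Hilpda does not. Macrophage RNA was estimated at 7.74% and 5.91% of the UMIs of mCherry-rich cells. Subtracting it left 2 members higher and 17 lower, and restricting the class to cells without a Csf1r UMI left 3 higher and 14 lower.

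Neighbouring lists behaved unevenly between the classes. Hif1a, the oxygen-regulated subunit of HIF, was at 56.8 and 50.2 CPM in mCherry-rich cells against 247 and 239 CPM in Csf1r cells (ratios 0.230 and 0.210), and 3 of 5 HIF pathway genes were lower. Further hypoxia targets divided into 7 higher and 7 lower of 17. The higher ones were led by Plod2, a collagen lysyl hydroxylase, at 41.9 and 53.2 CPM against 0.443 and 0.580 CPM. Among 8 further glycolysis genes, 4 were higher and 2 lower: Hk3 (ratios 0.091 and 0.073), a hexokinase of myeloid cells, was lower, and Pfkm (6.07 and 6.25), the muscle-type phosphofructokinase, and Ldhb (2.99 and 3.70), a subunit of lactate dehydrogenase, were higher. Plod2 reached 10 CPM in mCherry-rich cells alone. So did Pfkm (12.4 against 2.04 CPM) and Ldhb (25.8 against 8.64 CPM) in the young library. The minimum level fixed the direction of these genes there. The higher counts of further hypoxia targets and further glycolysis genes include such genes and are not read as results. Pentose phosphate genes were lower for 4 of 7. Of 18 genes of pyruvate entry and the citric acid cycle, 5 were higher, among them Idh3a (2.78 and 2.22), and 1, the pyruvate carrier gene Mpc1 (0.481 and 0.507), was lower.

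Neutrophils were compared with the same Csf1r cells, so this contrast shares its reference with the one above. Of 31 measured members, 10 were higher and 2 lower in neutrophils, where 11.1% of 6387 features were higher and 25.5% lower. The median log2 ratio was 0.29 for the members and -0.74 for all features. Higher members were 3 of 3 transporters and 7 of 12 hypoxia targets, and 0 of 13 enzymes and 0 of 3 regulators. Slc2a3 and Adm reached 10 CPM in neutrophils alone, so the minimum level fixed their direction. The 10 higher members, the 3 transporters and the 7 hypoxia targets include these calls, which are not read as results. Scaling by the median ratio of abundant genes raised every log2 ratio by 0.28 and gave 12 higher and 0 lower.

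Hilpda led by number of molecules, with ratios of 5.47 (5.15 to 5.81) in the young and 5.59 (5.29 to 5.90) in the adult library. Egln3 was at 285 and 332 CPM, with ratios of 6.02 (4.84 to 7.40) and 5.03 (4.24 to 5.93). Ero1l was at 509 and 609 CPM, with ratios of 3.89 and 4.37. Mitochondrial clearance receptors were higher as well, with Bnip3l at 408 and 401 CPM (3.20 and 3.45) and Bnip3 at 423 and 455 CPM (1.60 and 1.92). Ddit4 had ratios of 2.42 and 1.67. Slc2a3 had ratios of 87.8 (51.7 to 145) and 43.0 (23.5 to 75.8), and Adm, with only 7 and 8 UMIs in neutrophils, ratios of 34.4 (13.0 to 77.9) and 14.3 (5.92 to 30.1).

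The enzymes lay on both sides of their Csf1r level. Tpi1 had ratios of 0.966 and 0.990, Pkm 0.990 and 0.935, Eno1 0.935 and 0.903, and Ldha 1.09 and 1.28. Lower values were those of Gapdh (0.619 and 0.813), Gpi1 (0.737 and 0.530) and Pgk1 (0.853 and 0.697). Hk2 had 0.619 in the young and 1.05 in the adult library. Hk1, the constitutive hexokinase, had 1.58 and 2.204, with an interval that spans 1 in the young library. Aldoc was lower (6 UMIs in the 2 libraries together), as was Vegfa with ratios of 0.555 (0.404 to 0.743) and 0.655 (0.506 to 0.834). Aldoc reached 10 CPM in Csf1r cells alone in the young library, so the minimum level fixed its direction there. Vegfa thus stood on the other side of 1 from Hilpda, Egln3 and Ero1l in these cells, and under the scaling above it and Aldoc lost their calls. Neutrophils are shallow, and with every cell thinned to 1000 UMIs 8 members were higher and 2 lower. Thinned to 3000 UMIs, which left 26 and 31 neutrophils, 6 were higher and 1 lower. Genes of pyruvate entry and the citric acid cycle were lower for 10 of 18, with 0 higher, and pentose phosphate genes for 3 of 7. The chemokine receptor gene Cxcr4, a further hypoxia target, was at 215 and 303 CPM (4.65 and 4.70). Hif1a was lower, with ratios of 0.645 and 0.635.

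**Figure D3:**
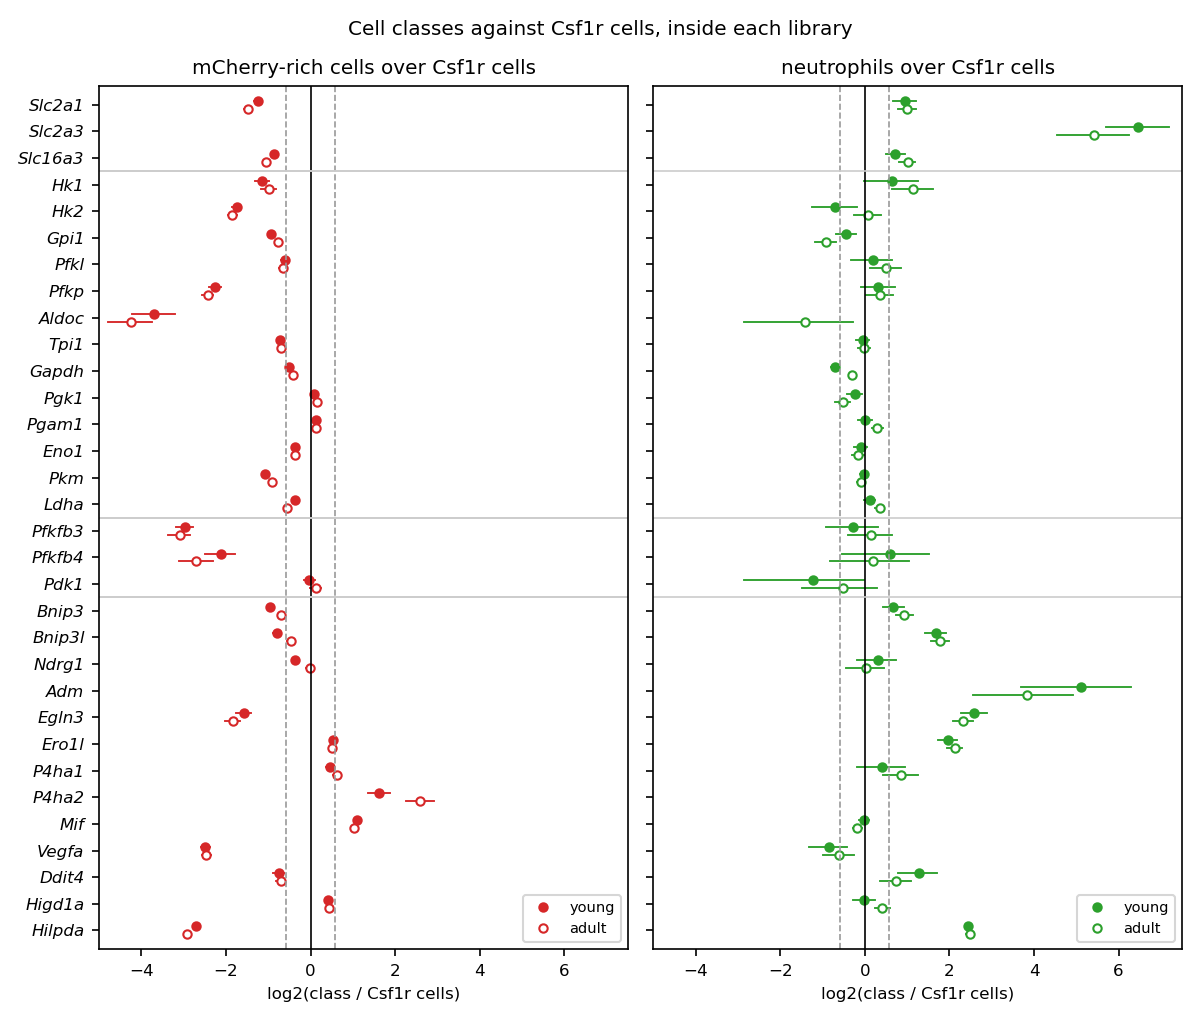
Log2 ratio of each member in mCherry-rich cells (left) and neutrophils (right) over Csf1r cells of the same library, filled for young and open for adult, with 95% counting intervals as bars and dashed lines at 1.5-fold. With the interval off 1 in both libraries, 17 members lie below and 2 above the lines in mCherry-rich cells, and 10 above and 2 below in neutrophils, where Aldoc has no point for the young library (0 UMIs). Both panels share the Csf1r cells.

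Within Csf1r cells the members were compared across cells gated by Ly6c2, C1qa, Hmox1 and Mrc1, which mark monocyte-like, complement-rich, heme-handling and alternatively activated cells. The split by Hmox1, the heme oxygenase, gave the most calls of these 4. Cells with at least 5 Hmox1 UMIs per 10000 were 27.5% of young (1516 cells) and 11.3% of adult Csf1r cells (493), with 455 and 220 cells close to the gate at 4 to 6 per 10000. Of 29 measured members 7 were higher in Hmox1-high cells and 0 lower. Over 6239 features 2.79% were higher and 1.47% lower. The median log2 ratio was 0.32 for the members and -0.06 for all features.

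Of the 7 members, 6 were hypoxia targets. Egln3 was at 93.1 and 160.3 CPM in Hmox1-high against 31.9 and 56.3 CPM in Hmox1-low cells, with ratios of 2.92 and 2.85. Hilpda was at 1035 against 483 CPM in the young library and 1045 against 496 CPM in the adult one, with ratios of 2.14 (2.10 to 2.19) and 2.11 (2.04 to 2.18). Ero1l had ratios of 2.16 and 2.99. The remaining hypoxia targets were Bnip3 (1.80 and 1.96), the stress-induced gene Ndrg1 (1.69 and 2.41) and Ddit4 (1.96 and 1.78). The seventh was Slc2a1, at 235 and 311 CPM in Hmox1-high cells, with ratios of 1.502 and 1.70. That call stood at the limit and was lost with a Csf1r gate of 2 UMIs, with thinned cells, with equal weights for cells, with all barcodes and inside a single marker combination.

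Enzymes stood above 1 in mean log2 ratio for 11 of 13, yet none reached 1.5-fold. Pgk1 had ratios of 1.30 and 1.32, Tpi1 1.29 and 1.201, and Gapdh 1.15 and 1.23. The exceptions were Pfkp, with 0.879 in the young library, and Aldoc (0.841 and 0.737). Neutrophil markers summed to 144 against 90.9 CPM in young and 150 against 108 CPM in adult Hmox1-high and Hmox1-low cells, and their part in these ratios was not tested. T and NK cell markers summed to 9.87 against 28.1 CPM and 12.9 against 18.3 CPM. Inside Ly6c2-positive cells low in C1qa and without Mrc1, the 6 hypoxia targets kept their calls and Slc2a1 did not, with 7 members higher in all. Of 18 genes of pyruvate entry and the citric acid cycle, Idh3a was lower (0.643 and 0.621) and 0 were higher.

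C1qa, a subunit of complement C1q, gave the opposite direction at smaller size. Cells with at least 5 UMIs of it per 10000 were 47.1% of young and 41.6% of adult Csf1r cells. In the mean of the 2 libraries 26 of 29 measured members stood below 1, yet only Egln3 passed the limits. It was at 32.8 and 46.4 CPM in C1qa-high against 63.5 and 84.5 CPM in C1qa-low cells, with ratios of 0.516 (0.478 to 0.557) and 0.549 (0.510 to 0.591). Ero1l (0.690 and 0.608) and Hilpda (0.677 and 0.809) followed. Over 6238 features 0.625% were higher and 0.882% lower. Neutrophil markers summed to 77.1 against 135 CPM in young and 90.4 against 132 CPM in adult C1qa-high and C1qa-low cells, and T and NK cell markers to 18.6 against 29.0 CPM and 14.9 against 20.5 CPM. Their part was not tested.

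The splits by Ly6c2, a monocyte surface antigen, and by Mrc1, the mannose receptor, called no member. With Ly6c2, which 91.3% of young and 79.99% of adult Csf1r cells carried, 0.43% of 6278 features were higher and 0.605% lower. With Mrc1, carried by 6.97% and 19.8%, 0.75% of 6266 features were higher and 0.415% lower. Egln3 had ratios of 1.48 in the young and 0.834 in the adult library for Mrc1, on opposite sides of 1, and 0.598 and 0.901 for Ly6c2, both below 1. A split by traces of mCherry transcript compared Csf1r cells with 3 to 9 mCherry UMIs (41 young and 31 adult) with the 82.2% and 81.8% of Csf1r cells that had none. Bnip3l (0.613 and 0.601) and Egln3 (0.485 and 0.222, from 10 and 6 UMIs) were lower and 0 members higher, while 1.62% of 6498 features were higher and 0.2% lower. All 13 enzymes stood below 1 in the mean of the libraries, where the median log2 ratio over all features was 0.0009. The libraries did not agree on this. In the young library Pfkl (1.16), Pfkp (1.05), Tpi1 (1.02), Pgam1 (1.06) and Pkm (1.004) stood above 1. Both calls were lost when cells were thinned to 3000 UMIs. T and NK cell markers summed to 4.63 against 22.2 CPM in young and 193 against 17.3 CPM in adult cells with and without the trace. Macrophage markers summed to 18652 against 19435 CPM and 13756 against 17011 CPM, and the part of either list was not tested.

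**Figure D4:**
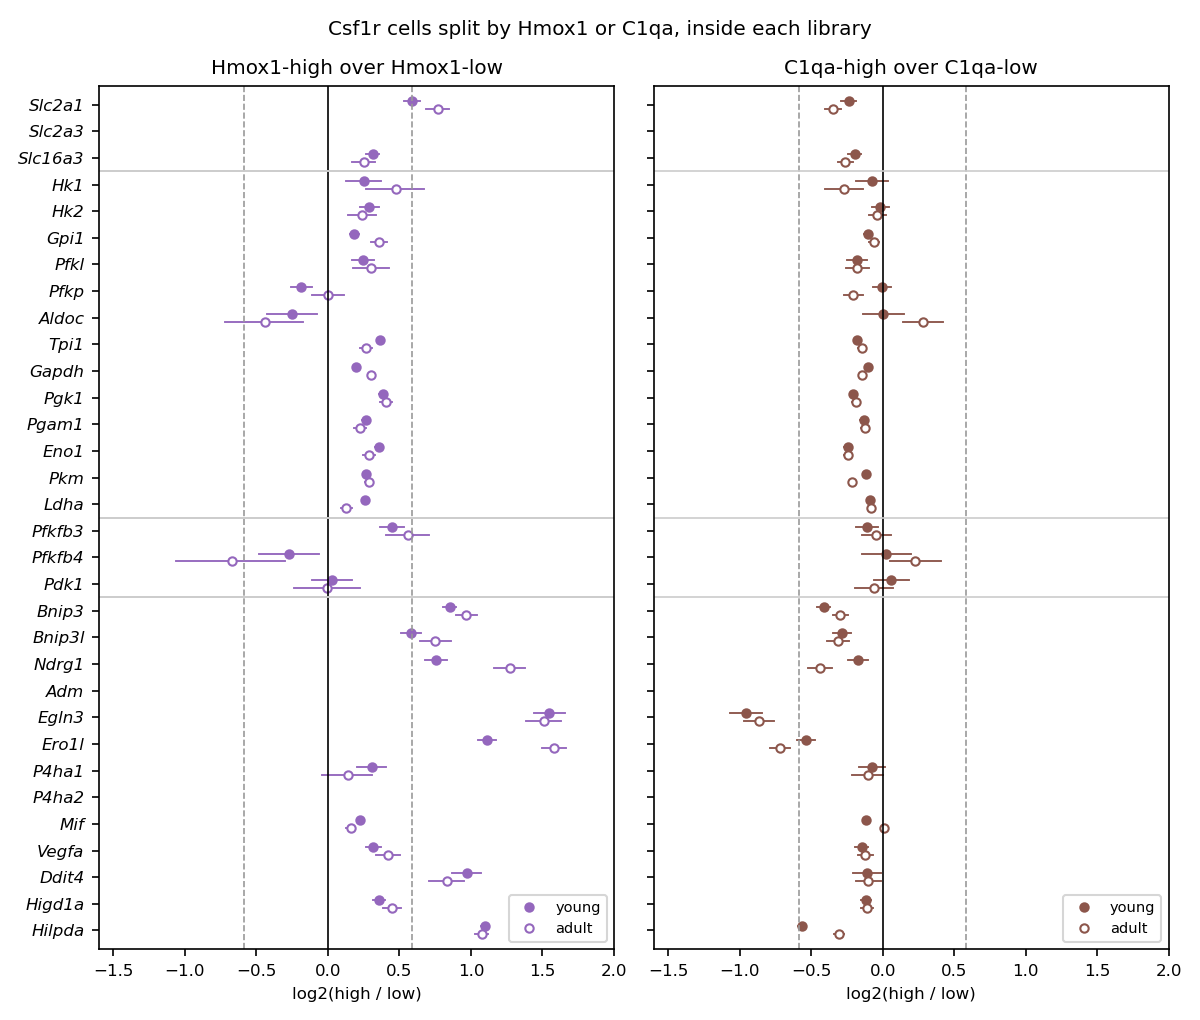
Log2 ratio of each member between Csf1r cells high and low for Hmox1 (left) and C1qa (right), filled for young and open for adult, with 95% counting intervals as bars and dashed lines at 1.5-fold. Egln3 lies above the line in both libraries for Hmox1 (ratios 2.92 and 2.85) and below it for C1qa (0.516 and 0.549), where it is the only member past the line in both libraries.

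The last comparison asked whether transporters, enzymes and regulators rise in the same cells as hypoxia targets. Cells of at least 5000 UMIs were thinned to 5000, and the UMIs of 11 targets (the list of 13 without Mif and Ddit4) were summed to a score, with a gene left out of its own score. Scores of 4 or more counted as high and of 0 or 1 as low. In Csf1r cells 4314 young and 3282 adult cells were high and 158 and 185 low. The 11 scored genes belong to the rule of this split, and only the other 21 members are read.

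Of 20 measured members outside the score, 9 were higher in high-scoring Csf1r cells and 0 lower, and all 20 stood above 1 in the mean of the libraries. Over 6288 features 1.48% were higher and 1.19% lower. The median log2 ratio was 0.73 for these members and -0.04 for all features. Both measured transporters were among the 9, with Slc2a1 at 193 against 105 CPM in young and 218 against 84.3 CPM in adult cells (ratios 1.84 and 2.59) and Slc16a3 at 321 against 171 CPM and 282 against 135 CPM (1.88 and 2.09). The enzymes that passed were Pfkl, the liver-type phosphofructokinase (1.82 and 2.05), Tpi1 (1.67 and 2.198), Pgk1 (1.63 and 2.30), Pgam1 (1.71 and 2.29) and Eno1 (1.53 and 1.81). The last members were Pdk1 (1.66 and 2.73), the kinase that holds pyruvate back from mitochondria, and Ddit4 (2.57 and 2.97). Low-scoring cells were few, so the 20% of cells with the highest and the 20% with the lowest score were compared as well, and 15 of the 20 members were then higher. Macrophage markers summed to 19058 and 19257 CPM in high- and low-scoring young cells and 16235 and 19408 CPM in adult ones. T and NK cell markers summed to 14.6 against 82.3 CPM in young and 14.4 against 44.3 CPM in adult cells, and neutrophil markers to 108 against 104 CPM and 106 against 59.5 CPM. The part of these cells in the ratios was not tested.

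The rise was graded over the score. From scores of 0 to 1, through 2 to 3, 4 to 9 and 10 to 19, to 20 or more, the summed enzymes rose from 10044 to 10707, 12140.5, 14492 and 18628 CPM in young Csf1r cells. In adult cells the sums were 7628, 9712, 12045, 14569 and 18603 CPM, an increase at every step in both libraries. Slc2a1 went from 105 to 364 CPM and from 84.3 to 399 CPM between the outer bins. Gapdh went from 3611 to 6257 CPM and from 2841 to 6593 CPM. Ddit4 was at 22.8, 24.5, 39.5, 59.7 and 126 CPM in young and 32.4, 48.6, 74.3, 102 and 176 CPM in adult cells, lower in the young library in every bin. The share of Hmox1-high cells rose with the score from 10.8% to 63.7% in young and from 3.24% to 31.5% in adult cells, and that of C1qa-high cells was 50% and 49.2% in the lowest and 29.9% and 31.7% in the highest bin. Among Hmox1-low cells alone 7 of the 20 members were higher. The bins were chosen after the data were seen.

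**Figure D5:**
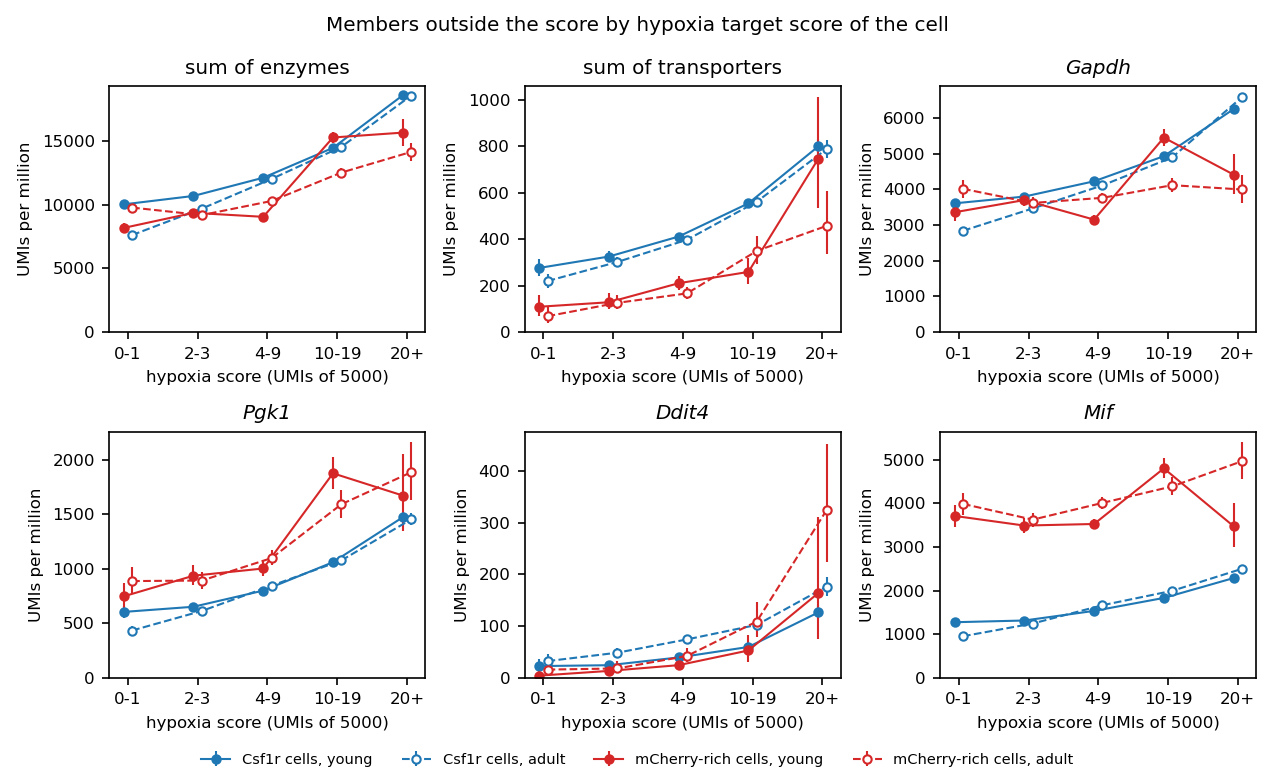
Level in CPM of thinned UMIs by bin of the hypoxia target score for the summed enzymes, the summed transporters, Gapdh, Pgk1, Ddit4 and Mif, in Csf1r and mCherry-rich cells, with solid lines for young and dashed lines for adult and bars for the exact Poisson 95% interval. In Csf1r cells the enzymes rise from 10044 to 18628 CPM (young) and from 7628 to 18603 CPM (adult). The highest bin of mCherry-rich cells holds only 11 and 21 cells.

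Other lists moved unequally with the score in Csf1r cells. Egln1, the main oxygen-sensing HIF hydroxylase, was at 33.1 against 12.7 CPM and 32.4 against 8.65 CPM in high- and low-scoring cells (2.62 and 3.74). It reached 10 CPM in high-scoring cells alone in the adult library, so the minimum level fixed its direction there. Of 11 further hypoxia targets 5 were higher, led by Nos2 (2.96 and 5.90), Ankrd37 (2.57 and 5.29) and Mxi1, a transcriptional repressor (3.60 and 2.42). Pentose phosphate genes gave 0 of 7 and genes of pyruvate entry and the citric acid cycle 0 of 18 in either direction, with median log2 ratios of -0.10 each.

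Hilpda varied over a wide range between cells. In Csf1r cells thinned to 5000 UMIs its median was 2 UMIs in the young and 1 in the adult library, its 90th percentile 9 and 7 and its highest value 46 and 53. The 10% of cells with the most Hilpda held 41.8% and 43.7% of its UMIs, and its variance was 5.99 and 5.87 times its mean. For Gapdh the 10% with the most Gapdh held 18.5% and 19.5%, and for Mif the share was 20.7% and 21.3%. The share was higher still for members of lower mean, such as Egln3 (76.2% and 71.6%), Ddit4 (71.8% and 63.5%), Ndrg1 (56.4% and 59.1%) and Ero1l (52.0% and 53.9%). A lower mean raises this share by counting alone, the mean of Hilpda was 3.31 and 2.84 UMIs and that of Mif 8.41 and 8.78, and the part of the mean was not tested.

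In mCherry-rich cells 258 young and 284 adult cells scored high and 46 and 50 low, and 6 of 18 measured members outside the score were higher and 0 lower. Over 6030 features 3.47% were higher and 0.315% lower. The members were Slc2a1 (4.06 and 6.91, from 4 UMIs in the low cells of each library), Slc16a3 (1.91 and 2.85), Hk2 (from 2 and 4 UMIs in the low cells), Gpi1 (glucose phosphate isomerase, 1.52 and 1.93), Pfkl (2.23 and 2.13) and Ddit4 (from 1 and 4 UMIs in the low cells). Hk2 and Ddit4 reached 10 CPM in high-scoring cells alone in the young library, so the minimum level fixed their direction there. Gapdh (1.14 and 0.966) and Mif (1.04 and 1.05) stayed close to 1. The summed macrophage markers were 2167 CPM in high- against 839 CPM in low-scoring young cells and 1212 against 508 CPM in adult cells. Mesenchymal and tumour markers, mCherry included, summed to 3858 against 4065 CPM and 4019 against 5196 CPM. Without the cells that held a Csf1r UMI, 7 of 17 measured members were higher. With cells thinned to 8000 UMIs the count was 3, and between the 20% of cells with the highest and lowest score it was 10.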

How the data were processed

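RNA of mCherry-sorted cells from 2 libraries, young and adult, was analysed. The authors deposited raw UMI counts per gene and barcode, unscaled, in sparse matrices. Per the submitters' processing notes they used Cell Ranger 3.0.2 and build mm10, and the barcode filter is not given in the sources used here. Barcodes under 200 genes or over 10% mitochondrial UMIs were dropped (468 young and 505 adult barcodes, of 84862471 and 70988070 UMIs in all). No doublet caller was run. Each library was assigned by its title.

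Counts were summed per library and class and scaled to 1000000 (CPM), with exact Poisson 95% intervals for levels and conditional binomial (Clopper-Pearson) 95% intervals for ratios. Droplet UMIs within a cell are not independent of cell state, so intervals cover counting error only. Members were measured where either side reached 10 CPM and called at 1.5-fold with an interval off 1, in both libraries for contrasts within a library. A count of 0 was marked at the level of 3 UMIs, which lies below the upper end of its exact Poisson 95% interval. All 32 members are named, and from each of 5 neighbouring lists up to 3 measured genes with the largest mean absolute log2 ratio are named. The members and lists were chosen with earlier results of these data known. Reads of Gapdh, Pgk1, Eno1, Tpi1, Pgam1, Ldha, Pkm and Mif, which have near-identical pseudogene copies, may have been lost or split by the counting. The scripts used Python 3.11.15, numpy 2.4.6, scipy 1.17.1 and pandas 2.3.3 and were tested on simulated data. Gene positions are from GENCODE M21 on the same build. Alternatives were other depths, gates, weights, scaling and cell filters.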

Additional observations from a re-analysis of the deposited data

Results flagged for a closer look

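For 7 members the young/adult ratio lay on opposite sides of 1 in Csf1r cells and in mCherry-rich cells, each with a counting interval off 1. The difference between the classes was not tested, and every ratio is far below 1.5-fold. Of the glycolytic enzymes, Gpi1 had ratios of 1.07 in Csf1r and 0.963 in mCherry-rich cells, a log2 difference of 0.15. Gapdh had 1.04 and 0.984 (difference 0.0816), and Pgk1 had 1.03 and 0.972 (difference 0.0814). Ldha went the other way, with 0.931 and 1.06 (difference -0.19). The mitochondrial clearance receptors Bnip3 (1.11 and 0.921, difference 0.27) and Bnip3l (1.09 and 0.867, difference 0.34) and the stress-induced Ndrg1 (1.10 and 0.870, difference 0.34) were higher in young Csf1r cells and lower in young mCherry-rich cells.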

How the results depend on the processing

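With 1 library per age no result has a replicate, and intervals at this depth cover counting error only. Neutrophil values rest on few UMIs. Of 196 recomputed counts of called members 174 stayed within 1.5 times the reported count. There were 72 calls, each of a member in a given comparison, with 641 recomputed values. Of these values 590 stayed past the limits, 51 fell short and 0 changed direction. The 72 calls include scored genes in the score splits, such as Bnip3 and Higd1a, which belong to the rule of those splits. They also include calls whose direction the minimum level fixed. The stability of such calls is not read as a result. The counts that moved follow, and the cause was not tested. With cells thinned to 3000 UMIs, neutrophils gave 1 member higher and 0 lower by age and 6 higher and 1 lower against Csf1r cells, and the mCherry trace split gave 0 lower. Thinned to 8000 UMIs, the score in mCherry-rich cells gave 3 higher. With each cell weighing the same, mCherry-rich cells gave 2 higher by age, neutrophils 4 lower by age and 4 lower against Csf1r cells, and the trace split 1 lower. Without the 6% of cells with the most UMIs, which left 154 and 192 mCherry-rich cells, these gave 2 higher and 3 lower by age. Without mCherry-rich cells holding a Csf1r UMI, 0 were lower by age. Median-ratio scaling left 0 lower in neutrophils against Csf1r cells. It shifted all log2 ratios by 0.28 there and by at most 0.06 elsewhere. With no minimum level, Csf1r cells gave 1 higher and 2 lower by age, the Ly6c2 split 2 lower and the C1qa split 2 lower. A neutrophil gate of 2% gave 1 higher by age, and a gate of 10 UMIs per 10000 gave 2 lower for C1qa. The 20% of cells with the highest against the 20% with the lowest score, chosen after seeing the data, gave 15 higher in Csf1r and 10 in mCherry-rich cells. The other alternatives chosen after seeing the data were a Ly6c2 gate of 5 UMIs per 10000, the Hmox1 split in a single marker combination, the score in Hmox1-low cells and thinning to 1000 UMIs. No paired analysis was possible because each age is 1 library.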

Other observations

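Cells that passed none of the 3 gates, 1025 young and 745 adult, held several members at levels that differed by age. Pfkfb3 had 112 CPM in the young and 63.5 CPM in the adult library, and Vegfa 270.01 and 175 CPM. Hilpda was at 1011 and 731 CPM. Ddit4 was at 64.5 and 122 CPM. Adm, at 0.624 and 1.24 CPM in Csf1r cells, had 0.722 CPM (4 UMIs) in the young and 11.97 CPM (49 UMIs) in the adult library, and Slc2a3 at 4.88 and 12.5 CPM. Marker lists differed too: in young against adult cells, mesenchymal and tumour markers summed to 111 against 596 CPM, T and NK cell markers to 450 against 898 CPM, dendritic cell markers to 144 against 256 CPM and macrophage markers to 12896 against 9128 CPM. These cells are a mixture defined only by what they lack, so differences in their makeup and in level cannot be told apart.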
